A study of Mus musculus with 6 samples.

Results

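Pax7, Six4, Myf5, Myod1, Myog, Myf6, Mef2a, Mef2c and Mef2d encode transcription factors that specify satellite cells and control the muscle program. These 9 genes were picked by name from a table of 57010 genes, and all 9 were found in it. RNA sequencing had been done on gastrocnemius, a calf muscle of mostly fast fibres, of NSG mice (NOD/SCID mice that also lack the interleukin-2 receptor gamma chain). All mice of both groups carried a subcutaneous flank xenograft of MDA-MB-231, a human breast cancer line, with Rab27a knocked down; the labels do not give the age, the sex or the number of knockdown clones. In the radiotherapy group (n = 3) the tumour received 10 Gy of X-rays in 1 fraction, and the gastrocnemius on the other side was taken 3 days later. The control group (n = 3) is labelled as control, with no dose given. No group without the tumour or without the knockdown was analysed here. Nothing in the labels ties each sample to its own mouse. The p-values therefore reflect the variation among these libraries alone, which may be technical.

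Satellite cells are the stem cells of skeletal muscle and lie between the fibre and its basement membrane. They are marked by the paired-box factor Pax7. On activation they express the basic helix-loop-helix (bHLH) factors Myf5 and Myod1, and on differentiation Myog, while Myf6 (also called MRF4) is the member of that family best known from mature fibres. These bHLH proteins bind E-box sequences as dimers with E proteins. MEF2 proteins, of the MADS-box class, bind A/T-rich sites beside E-boxes and act with the bHLH factors, and the homeodomain proteins of the Six4 family bind a sequence called MEF3 and work with EYA coactivators. In adult muscle some of these factors also act inside fibre nuclei, where Myog and MEF2 answer to nerve activity.

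Expression was given as TPM, a share of all transcripts corrected for gene length and scaled to a fixed total. Each library therefore has the same total, and the depth is unknown. Between 10890 and 11866 genes reached 1 TPM in a library. Mitochondrial transcripts made up 8.93 to 13.7% of a control library and 15.1 to 22.5% of a radiotherapy library, which lowers the share of other genes. Over the 11375 genes tested, fold changes had a median of −0.11 on the log2 scale. The tissue markers Acta1 (skeletal actin), Ckm (muscle creatine kinase), Myh4 (fast myosin) and Mylpf (fast light chain) were abundant in all libraries, with at least 3354 TPM. Control 1 stood apart in leukocyte genes and radiotherapy 2 in fast fibre genes, so each result was also computed without each library and without both of these.

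The 9 factors spanned a wide range of levels. Myf6 was the most abundant, at 200.4 ± 67.6 TPM (mean ± SD, n = 6, both groups), and lay above each of the other 8 in 6 of 6 libraries. Mef2d followed at 35.0 ± 13.7, Mef2c at 33.2 ± 17.4 and Myog at 31.8 ± 15.2 TPM. These 3 did not differ beyond their spread: Mef2d was above Mef2c in 2 libraries of 6, and Mef2c above Myog in 3 of 6. Mef2a came next, at 17.8 ± 3.46 TPM, and its range overlapped those of the 3 above it. Myod1 averaged 7.98 ± 6.72 TPM and was below Mef2a in 6 of 6 libraries. Six4, at 2.32 ± 0.544 TPM, was below Myod1 in 5 of 6. Myf5 (0.330 ± 0.155 TPM) and Pax7 (0.112 ± 0.0902 TPM) were the lowest, and Myf5 was above Pax7 in each library. The factors that mark satellite cells were thus at the bottom of the order and the factor of mature fibres at the top.

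**Figure D1:**
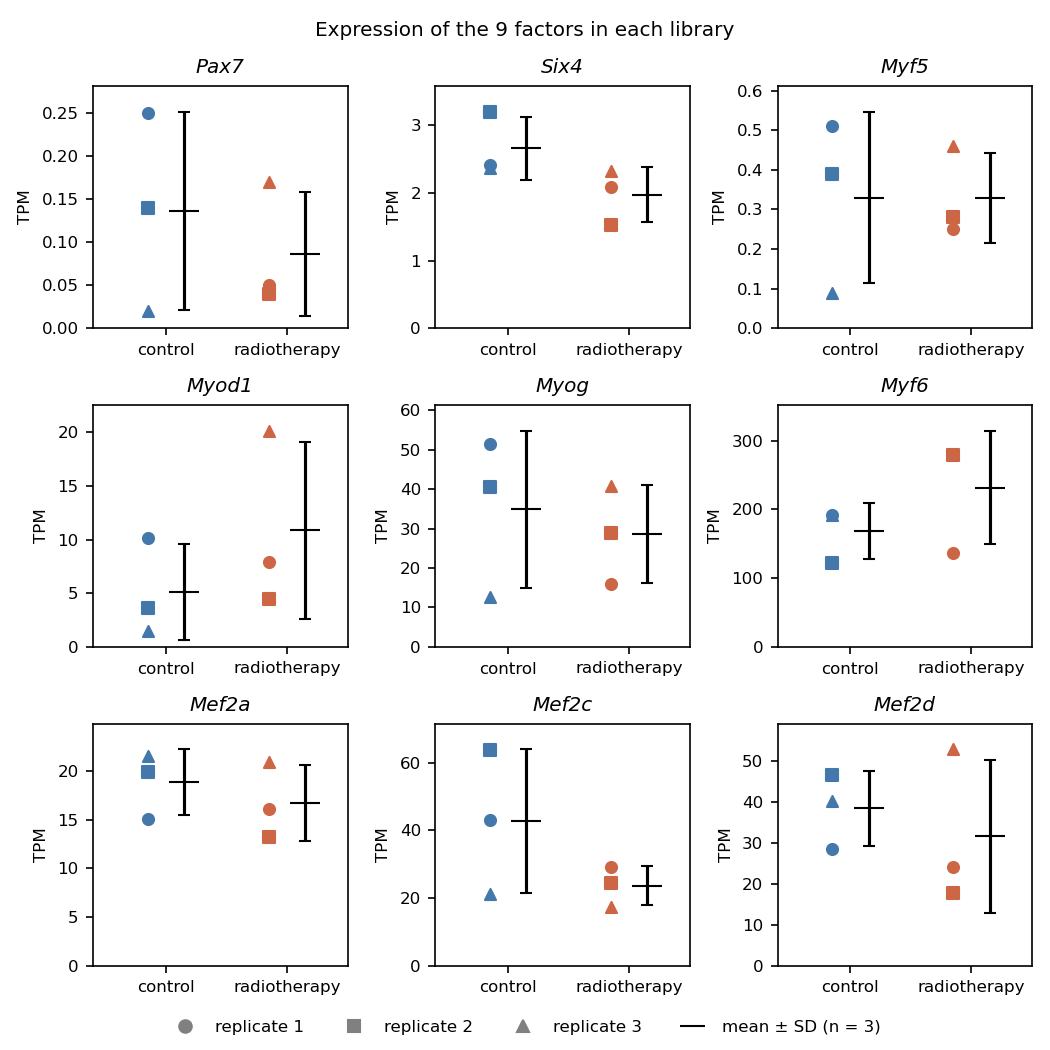
Expression of the 9 factors in TPM (vertical axes, each from 0) in control (blue) and radiotherapy (orange) libraries, with the replicate number as the marker shape and the mean ± SD of 3 libraries as a black bar. Only Six4 has all 3 radiotherapy values below all 3 control values, and control 3 (blue triangle) is the lowest library for Pax7, Myf5, Myod1 and Myog.

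No factor passed the test of radiotherapy against control. The test was limma on log2(TPM + 1) over the 11375 genes that reached 1 TPM in 3 or more libraries, with p-values adjusted by Benjamini-Hochberg over all of them. It included 7 of the 9 factors. Of these, 0 were called at an adjusted p of 0.05, as was true of 0% of all genes tested. At an unadjusted p under 0.05 the count was also 0 of 7, against 3.82% of all genes tested (2.86% lower). Groups that did not overlap were found for 1 of the 7 factors, Six4, which was lower; over all genes tested, 7.54% did not overlap and were lower, and 1.70% did not overlap and were higher. The median log2 fold change of the 7 factors was −0.17, beside −0.11 for all genes tested. Fold changes here and below are on the log2(TPM + 1) scale, radiotherapy minus control, and understate the change of low genes. The 3 MEF2 genes, Six4 and Myog had values below 0, Myod1 and Myf6 values above 0, and the interval of each of the 7 included 0.

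**Figure D2:**
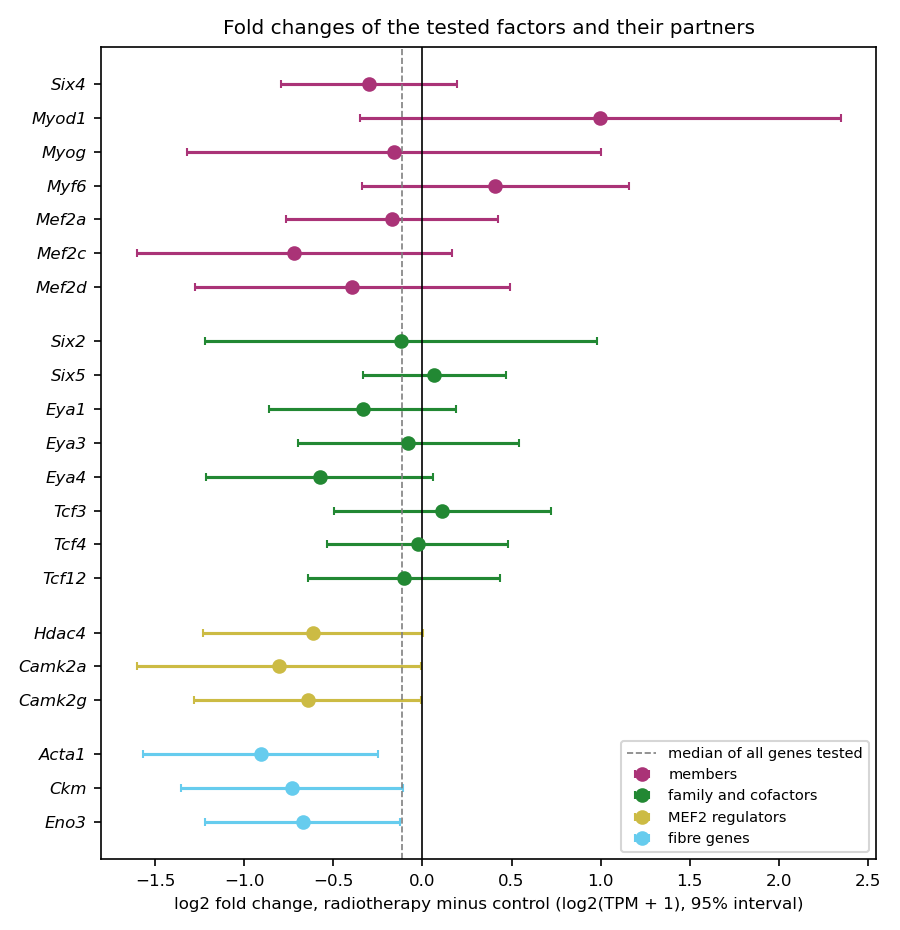
Log2 fold changes (radiotherapy minus control, horizontal axis, with 95% intervals from limma, 3 libraries against 3) of the 7 tested factors and of genes that work with them or are active in fibres. The intervals of all 7 factors include 0, with Myod1 the widest, from −0.35 to 2.35; those of Acta1, Ckm and Eno3 lie below 0, and none of the genes shown passed the adjusted threshold.

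Pax7 (ENSMUSG00000028736), the defining factor of satellite cells, was near the lower end of what the table records. Its TPM was 0.25, 0.14 and 0.02 in controls 1, 2 and 3, and 0.05, 0.04 and 0.17 in radiotherapy 1, 2 and 3. Each group thus held 1 value above 0.16 and 1 at or below 0.04, and the groups overlapped. Pax7 was under the expression filter. In the same fit without a filter its log2 fold change was −0.06 (SE 0.09, limma adjusted p = 0.904). In a bulk sample, fewer cells of a type and less RNA per cell cannot be told apart. Pax3, the paired-box relative that marks embryonic muscle progenitors, did not exceed 0.10 TPM in any library.

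Other satellite cell genes covered a wide range of levels. Calcr, the calcitonin receptor of quiescent satellite cells, was at 0 in 4 of 6 libraries and reached 0.07 TPM in control 2. Megf10, a receptor of satellite cells, lay between 0.02 and 0.13 TPM. Chodl, chondrolectin, averaged 0.948 TPM, with 1.56, 2.28 and 0.34 TPM in controls and 0.29, 0.38 and 0.84 TPM after radiotherapy. Cdh15, the cadherin between satellite cell and fibre, averaged 10.7 TPM. Of 17 satellite cell surface and niche genes, 13 were tested, and 0 were called higher or lower; the median was −0.04, with 5 values above 0 and 8 below, and it ran from −0.24 to 0.11 as each library was left out. Fgfr4, Chodl, Calcr and Megf10 were under the filter and are not in these counts. Without a filter they gave −0.24, −0.59, −0.02 and −0.08, with groups that overlapped. Cdh15 had a log2 fold change of −0.45 (SE 0.35). The growth factor receptor Met, the receptor of hepatocyte growth factor, gave −0.28 (SE 0.22). Tnfrsf12a, the TWEAK receptor, gave 0.52 (SE 0.44), with its highest value, 162 TPM, in radiotherapy 3. Several genes of this list are also made by other cells, so they do not count satellite cells.

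Six4 (ENSMUSG00000034460), a homeodomain factor that helps start the muscle program, was the factor whose groups did not overlap. Its TPM was 2.42, 3.20 and 2.37 in controls 1 to 3, and 2.09, 1.52 and 2.32 in radiotherapy 1 to 3. The separation was narrow, since the lowest control and the highest radiotherapy value were 2.37 and 2.32 TPM. These were in control 3 and radiotherapy 3, where mitochondrial transcripts made up 8.93% and 15.1%. The part of that share in the separation was not tested. The log2 fold change was −0.30 (SE 0.22, 95% interval −0.80 to 0.19, limma adjusted p = 0.977, lower in 3 of 3). It ranged from −0.39 to −0.19 as each library was left out in turn. Six2 and Six5, relatives of Six4, gave −0.12 (SE 0.49) and 0.07 (SE 0.18).

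EYA proteins are the coactivators of Six4 and its relatives, and DACH proteins act in the same complexes. Of 6 such genes, 4 were tested and 0 were called (median −0.21). Eya4 averaged 5.98 ± 1.23 TPM in the controls against 3.75 ± 1.27 TPM in the radiotherapy libraries (log2 fold change −0.58, SE 0.28, limma adjusted p = 0.977). Its groups overlapped, with 4.59 TPM in control 1 and 4.76 TPM in radiotherapy 3. Eya1 gave −0.33 (SE 0.23) and Eya3 −0.08 (SE 0.28). Dach1 and Dach2 were under the filter.

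Myf5 (ENSMUSG00000000435), the bHLH factor of committed satellite cells, had the same mean in both groups. It was at 0.51, 0.39 and 0.09 TPM in controls and at 0.25, 0.28 and 0.46 TPM after radiotherapy, 0.330 TPM on average in each. The control values enclosed the radiotherapy values. Under the filter in the main test, it gave 0.01 without one (SE 0.14, limma adjusted p = 0.996).

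Myod1 (ENSMUSG00000009471), the factor that activates muscle genes in proliferating myoblasts and is also expressed in fast fibres, varied most. Its TPM was 10.1, 3.63 and 1.53 in controls and 7.95, 4.49 and 20.2 after radiotherapy. The highest library, radiotherapy 3, was 13.2 times the lowest, control 3, and the groups overlapped. The mean went from 5.09 ± 4.47 to 10.9 ± 8.23 TPM, with a log2 fold change of 1.00 (SE 0.60, 95% interval −0.35 to 2.35, limma adjusted p = 0.977). The value was 0.47 without radiotherapy 3, 0.50 without control 3 and 1.57 without control 1, and 2.01 without control 1 and radiotherapy 2 together (limma adjusted p = 0.488). Its direction was positive in each of these.

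Myog (ENSMUSG00000026459), the factor of terminal differentiation, was spread as widely within the groups as between them. It was at 51.4, 40.5 and 12.7 TPM in controls and at 16.1, 29.0 and 40.9 TPM after radiotherapy. Control 3 and radiotherapy 1 were the low libraries, and the highest value of each group was 51.4 and 40.9 TPM. The log2 fold change was −0.16 (SE 0.51, 95% interval −1.32 to 1.00, limma adjusted p = 0.991). Its sign turned when control 1, control 2 or radiotherapy 1 was left out, with values from −0.75 to 0.22 over the 6 libraries left out in turn.

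The start region of Myog is shown because elements for several of the other factors lie within it. Promoter sequences came from RefSeq (GRCm38.p6), in which 7 of the 9 factors had an entry; Myod1 and Myf6 had none. The 250 bases before the Myog start, chr1:134289754-134290003 on the plus strand, were searched on both strands for the E-box (CANNTG), a MEF2 core (CTANNNNTA) and the MEF3 sequence (TCAGGTTTC). Capitals mark the matches:
Myog: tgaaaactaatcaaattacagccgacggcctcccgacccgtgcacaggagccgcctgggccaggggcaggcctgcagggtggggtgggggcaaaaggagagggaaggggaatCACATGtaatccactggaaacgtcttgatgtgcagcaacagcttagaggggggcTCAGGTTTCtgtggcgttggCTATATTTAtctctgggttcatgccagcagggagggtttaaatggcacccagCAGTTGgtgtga

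Read from the left, the capitals are an E-box from 138 to 133 bases before the start, MEF3 from 84 to 76, the MEF2 core from 64 to 56 and an E-box from 12 to 7. Among 32851 RefSeq start windows of the same length, 66.2% held an E-box, 19.0% a MEF2 core and 0.387% the MEF3 letters. Of the 10 windows of the factors, MEF3 letters stood in 1 other, that of Six4, on the opposite strand from 99 to 91 bases before 1 of its starts. That stretch of 100 bases, chr12:73113296-73113395 on the minus strand, reads as follows, with the reversed MEF3 in capitals:
Six4: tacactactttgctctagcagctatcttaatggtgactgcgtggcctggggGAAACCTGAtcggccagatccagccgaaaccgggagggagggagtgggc

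These matches describe letters only, and no binding was measured. The motif letters were chosen as those of the known Myog elements, after the expression values had been seen.

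Myf6 (ENSMUSG00000035923), the bHLH factor of mature fibres, was high in each library. Its TPM was 192, 122 and 192 in controls and 136, 279 and 280 after radiotherapy. Radiotherapy 2 and 3 were above all controls, while radiotherapy 1 lay between control 2 and the other controls. The mean went from 169 ± 40.4 to 232 ± 82.8 TPM, with a log2 fold change of 0.41 (SE 0.33, 95% interval −0.34 to 1.16, limma adjusted p = 0.977). It remained positive as each library was left out, from 0.19 to 0.75.

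Myf6 made up most of the bHLH transcripts. Of the summed TPM of Myf5, Myod1, Myog and Myf6, its share was 75.6, 73.3 and 93.1% in controls and 84.9, 89.2 and 82.0% after radiotherapy. Myog took 20.2, 24.3 and 6.16% in controls and 10.0, 9.26 and 12.0% after radiotherapy. Its share in radiotherapy libraries thus fell between that of control 3 and those of controls 1 and 2. Myod1 took between 0.741 and 5.90%, and Myf5 at most 0.234%. The ratio of Myog to Myod1 was 5.08, 11.2 and 8.32 in controls and 2.02, 6.45 and 2.03 after radiotherapy, so radiotherapy 2 lay within the control range and the other 2 below it. These shares are ratios within a library and do not depend on its mitochondrial content.

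**Figure D3:**
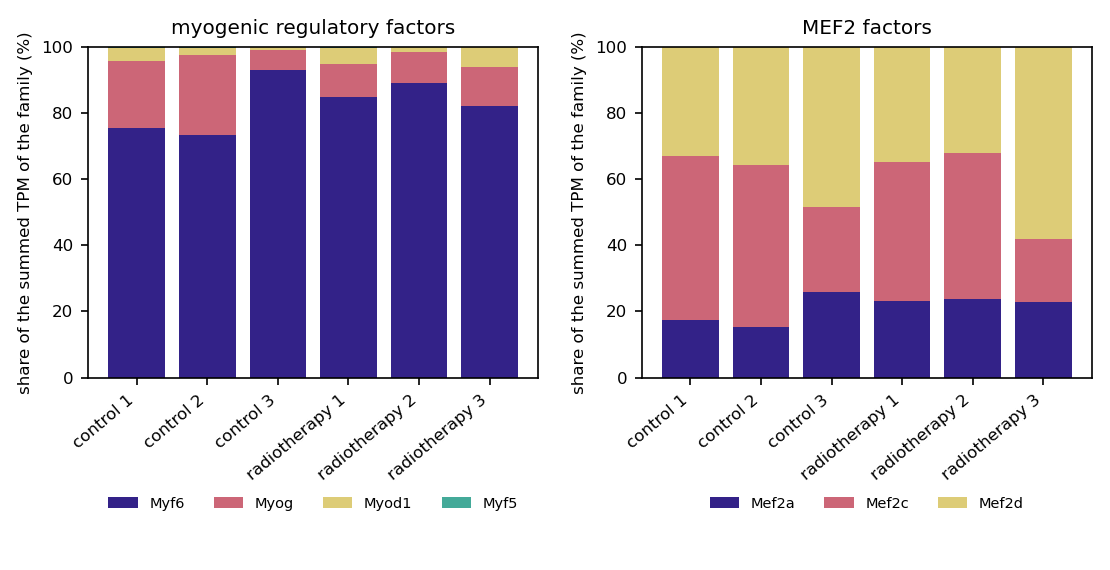
Share of each gene in the summed TPM (vertical axis, percent) of the 4 myogenic bHLH genes (left) and the 3 MEF2 genes (right) in each of the 6 libraries. Myf6 takes 73.3 to 93.1% of its family in each library, and Mef2d takes the largest share of the MEF2 family in control 3 and radiotherapy 3.

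The 3 MEF2 genes had lower means after radiotherapy, and none was called. Mef2c (ENSMUSG00000005583), which controls structural genes of muscle and is also expressed in endothelial and myeloid cells, had 43.1, 63.7 and 21.1 TPM in controls and 29.1, 24.5 and 17.4 TPM after radiotherapy. Controls 1 and 2 lay above all radiotherapy libraries, and control 3 lay among them. The mean went from 42.6 ± 21.3 to 23.7 ± 5.88 TPM, a log2 fold change of −0.72 (SE 0.39, 95% interval −1.60 to 0.17, limma adjusted p = 0.977). Without control 2 it was −0.37, and without control 3 it was −1.14. Among the 7 tested factors Mef2c had the smallest unadjusted p in limma, 0.10.

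Mef2d (ENSMUSG00000001419), the MEF2 gene with a muscle-specific splice form, had 28.5, 46.7 and 40.2 TPM in controls and 24.2, 17.8 and 52.9 TPM after radiotherapy. Radiotherapy 1 and 2 lay below all controls and radiotherapy 3 above them, so the groups overlapped at both ends. The log2 fold change was −0.39 (SE 0.39, limma adjusted p = 0.977), and it was −0.07 without radiotherapy 2 and −0.83 without radiotherapy 3. Mef2a (ENSMUSG00000030557), the MEF2 gene with broad expression in adult tissues, was the steadiest factor. It had 15.1, 19.9 and 21.5 TPM in controls and 16.1, 13.2 and 20.9 TPM after radiotherapy, a range of 1.63 times over 6 libraries (log2 fold change −0.17, SE 0.26, limma adjusted p = 0.980). Mef2b, the relative best known from lymphocytes, did not exceed 0.27 TPM.

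Within the MEF2 family, control 3 and radiotherapy 3 differed from the other libraries. Mef2c took 25.5 and 19.1% of the summed MEF2 TPM in these libraries, against 42.0 to 49.7% in the other 4. Mef2d took 48.5 and 57.9% there, against 32.1 to 35.8%. These libraries belong to different groups. Mef2a took 15.3 to 26.0%.

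Of the 7 tested factors, 2 were lowest in control 3, Myod1 and Myog, and so were the untested Pax7 and Myf5. Over all genes tested, 14.7% were lowest in that library. Control 3 was also lowest for 8 of 8 slow fibre markers, whose summed level was 818 TPM there against 1316 and 2333 TPM in the other controls and 1501 to 1981 TPM after radiotherapy. Their part in the low values of the factors was not tested. Mef2a, Mef2d and Six4, 3 of the 7, were lowest in radiotherapy 2, as were 52.4% of all genes tested. The fast fibre markers summed to 60529 TPM in radiotherapy 2, against 89316 and 94203 TPM in the other radiotherapy libraries and 104562 to 116733 TPM in controls, and their part in the values of these 3 factors was not tested.

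Genes with the same profile over the 6 libraries were sought for the 2 most variable tested factors, Myog and Myod1. Among 6330 named genes with a mean of at least 5 TPM, Id1, Litaf and Id3 had the profiles most like that of Myog, with Pearson's r of 0.99, 0.99 and 0.98 over 6 libraries. Id1 and Id3 encode inhibitors that take E proteins away from bHLH factors. Id1 was at 71.8, 70.2 and 14.1 TPM in controls and 20.7, 36.6 and 57.7 TPM after radiotherapy. As with Myog, control 3 and radiotherapy 1 were its lowest libraries. Id3 followed with 24.5, 24.7 and 8.67 TPM and 11.1, 15.7 and 25.1 TPM. For Myod1 the nearest genes were Rubcn, Pkn3 and Egfl7 (r from 0.98 to 0.99), of which Egfl7 is an endothelial gene. The values share 6 libraries and were ranked among many genes, so these likenesses are a description.

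**Figure D4:**
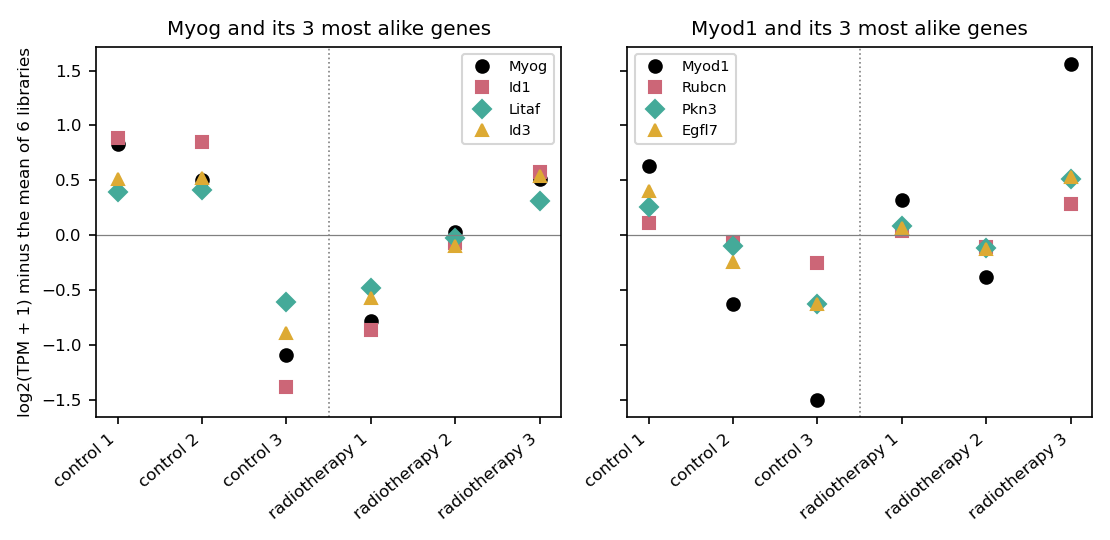
Deviation of log2(TPM + 1) from its mean over the 6 libraries (vertical axis) for Myog (left) and Myod1 (right, black circles) and the 3 genes most like each in profile; the dotted line divides control from radiotherapy libraries. Myog, Id1, Id3 and Litaf are low in control 3 and radiotherapy 1, and Myod1 spans the widest range, from control 3 to radiotherapy 3.

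None of the tested partners and inhibitors of the bHLH factors was called. The E proteins Tcf3, Tcf4 and Tcf12 lay between 3.51 and 8.94 TPM in all libraries, with log2 fold changes of 0.11 (SE 0.27), −0.03 (SE 0.22) and −0.10 (SE 0.24). Of 17 genes that inhibit bHLH factors, 9 were tested and 0 were called. For 0 of the 9 the groups did not overlap, against 7.54% lower and 1.70% higher over all genes tested. The median of the 9 was −0.24, with 2 values above 0 and 7 below, where 67.9% of all genes tested were below 0. This median was 0.02 without control 2 and −0.09 without radiotherapy 2. Bhlhe40, a bHLH repressor, gave −0.62 (SE 0.46), the Notch target Hes1 −0.44 (SE 0.38) and the E-box repressor Zeb1 −0.27 (SE 0.24).

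Regulators of MEF2 held some of the lower values. Of 16 such genes, 13 were tested and 0 were called (median −0.15, and −0.35 to −0.06 as each library was left out). For 3 of the 13 the groups did not overlap and were lower, against 7.54% of all genes tested; for 0 they were higher. Camk2a encodes a calcium-calmodulin kinase that relieves MEF2 of its repressors. It had 45.1, 55.5 and 43.9 TPM in controls and 32.7, 14.98 and 39.8 TPM after radiotherapy (log2 fold change −0.80, SE 0.35, limma adjusted p = 0.977). Camk2g, a kinase of the same kind, went from 39.7 ± 3.65 to 25.9 ± 8.21 TPM (−0.64, SE 0.28). Hdac4, a class IIa histone deacetylase that binds and represses MEF2, was at 4.87, 5.60 and 5.29 TPM in controls and at 2.03, 2.90 and 4.73 TPM after radiotherapy (−0.62, SE 0.27). Signs differed within the list, and the repressors Cabin1 and Hdac7 gave 0.42 (SE 0.26) and 0.37 (SE 0.28).

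Further genes were read in 3 lists, of adult fibres, of early differentiation and of loss of the nerve. Only the adult fibre list was made of genes that MEF2 and the myogenic factors are known to act on. The list of adult fibre genes had 17 members, all tested, with 15 values below 0 and 2 above and 0 calls (median −0.36, beside −0.11 for all genes tested). For 8 of the 17 the groups did not overlap and were lower, against 7.54% of all genes tested, and 5 of 17 were lower at an unadjusted p under 0.05, against 2.86%. Fibre genes did not all go this way: the separate list of 8 slow fibre markers had 7 values above 0 and 1 below (median 0.31, 0 calls). Control 3 was the lowest library for 8 of these 8. Their summed level in controls, 818 to 2333 TPM, enclosed that after radiotherapy, 1501 to 1981 TPM. Acta1 had 23091, 19091 and 21960.0 TPM in controls and 15355, 6647 and 14363 TPM after radiotherapy (log2 fold change −0.91, SE 0.29, limma adjusted p = 0.977). Ckm gave −0.73 (SE 0.28) and Eno3, the muscle enolase, −0.67 (SE 0.24). Radiotherapy 2 was the lowest library for 16 of the 17 genes, these 3 among them, against 52.4% of all genes tested. Without control 1 and radiotherapy 2 the median of the 17 was −0.15. A larger mitochondrial share lowers the share of all other genes, and its part in the values of these 17 was not tested. After median-of-ratios scaling the median of the 17 was −0.26 and that of all genes −0.04.

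The other lists stayed nearer to 0. Of 13 genes of myoblast fusion and early differentiation, 8 were tested and 0 were called (median −0.08, and −0.21 to 0.04 as each library was left out). The fusion genes Mymk and Mymx were at 0 in 3 and 4 libraries and reached at most 0.22 and 0.71 TPM. Embryonic myosin, Myh3, which marks regenerating fibres, lay between 0.27 and 1.45 TPM. Myl4, the embryonic light chain, gave −0.52 (SE 0.28), Actc1, cardiac actin, −0.48 (SE 0.50) and Tnnt2, cardiac troponin T, 0.26 (SE 0.27). Of 13 genes that respond to loss of the nerve, 9 were tested and 0 were called (median −0.23). This median was 0.10 without control 3 and 0.06 without radiotherapy 1. Hdac4 is also in this list. Chrng, the fetal acetylcholine receptor subunit that returns after denervation, was at most 0.18 TPM. Its adult counterpart Chrne gave −0.28 (SE 0.24), and the receptor gene Chrnb1 had 45.6, 43.9 and 50.9 TPM in controls and 57.9, 52.2 and 65.8 TPM after radiotherapy (0.32, SE 0.22, limma adjusted p = 0.977), with groups that did not overlap, against 1.70% higher without overlap over all genes tested.

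**Figure D5:**
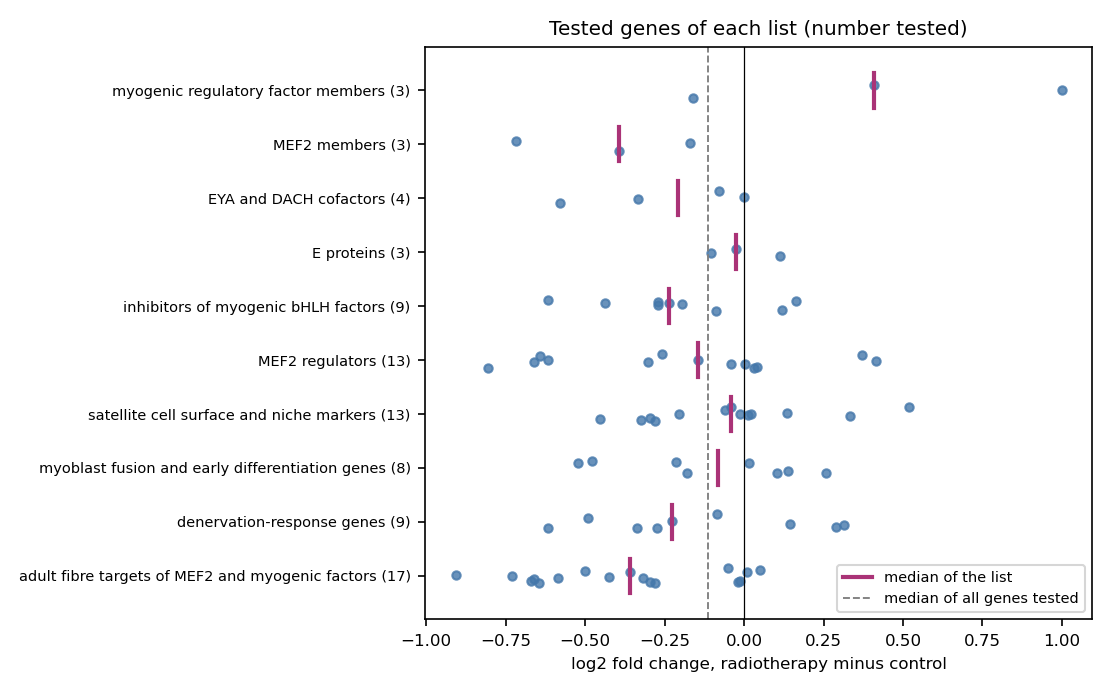
Log2 fold changes (radiotherapy minus control, horizontal axis) of the tested genes of each list (points, with the number tested in brackets) and the median of each list (bar), beside the median of all 11375 genes tested (dashed line). Of the 17 adult fibre genes, 15 lie left of 0, and no gene shown passed the adjusted threshold.

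Markers of other cells, some of which express MEF2 genes, varied by library. Lymphocyte markers, of which 3 of 7 were at 0 in all libraries, summed to 0.06 to 0.32 TPM in controls and 0.07 to 0.13 TPM after radiotherapy. The 10 macrophage markers summed to 36.1 to 363 TPM in controls, with the high value in control 1, and to 33.6 to 185 TPM after radiotherapy. The 8 endothelial markers summed to 158 to 236 TPM and 185 to 257 TPM, and 4 of them were lowest in control 3. Schwann cell markers summed to 34.3 to 114 TPM in controls and reached 610 TPM in radiotherapy 3. That library also had the most Myod1, Myf6 and Mef2d, and 35.8% of all genes tested were highest in it. The part of these cells in the levels of Mef2c and Mef2d was not tested.

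Markers of blood, tendon and fat were read in the same way, and none was called. The 5 red blood cell genes summed to 3352 to 7203 TPM in controls and 930 to 1618 TPM after radiotherapy. For 5 of 5 the groups did not overlap and were lower, against 7.54% of all genes tested. Their log2 fold changes ran from −2.18 to −1.54, with a smallest limma adjusted p of 0.648. The 6 tenocyte genes summed to 19.9 to 41.9 TPM and 11.9 to 17.2 TPM, and 3 of the 3 tested were lower at an unadjusted p under 0.05, against 2.86% of all genes tested. The 7 adipocyte genes summed to 266 to 886 TPM and 587 to 2345 TPM, with values above 0 for 6 of the 6 tested. Over all genes tested, 67.9% were below 0. Control 3 was the lowest library for 6 of these 6. The sum of 2345 TPM was that of radiotherapy 1, against 587 and 915 TPM in radiotherapy 2 and 3. The part of blood, tendon and fat in the values of the factors was not tested.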

How the data were processed

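The authors deposited 1 table of TPM values, 1 column per sample; HISAT2, StringTie, RSEM and genome build mm9 are named, per the submitters' processing notes, with versions, annotation and strandedness not given in the sources used here. No coordinates of that build are printed. Depth is unknown, so counting intervals cannot be given. Samples were grouped by the treatment label. Gene symbols are those of the table.

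Values were analysed as log2(TPM + 1), with genes of at least 1 TPM in at least 3 samples tested (limma 3.58.1 under R 4.3.3, empirical Bayes with a mean-variance trend, two-sided, group only, Benjamini-Hochberg over all tested genes, threshold 0.05). Genes under the filter were read from the same fit without one. The test was tested on simulated data with independent noise in each gene and no effect shared by a library, so that check does not give its power in these libraries. No 2 libraries were copies: at most 3.35% of nonzero values were equal in any pair.

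The 9 members and all lists were chosen with earlier results of these data known. Named genes were all members, the other family genes Pax3, Six2, Six5 and Mef2b, 4 tissue markers, the 3 tested genes of smallest p in each list and, for the 2 most variable members, the 3 genes of highest Pearson's r; others were named after their values were seen, and 1 gene of this rule is not reported here. Alternatives were pseudocount, filter, scaling, variance model, replicate block and left-out libraries. Figures used matplotlib 3.10.9.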

Additional observations from a re-analysis of the deposited data

How the results depend on the processing

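The count of factors past the threshold was 0 under every alternative run: no filter, a minimum of 5 TPM (which leaves out Six4), the pseudocount 0.1, 3 other scalings, limma without trend or with robust variances, the replicate block, each library left out, and control 1 and radiotherapy 2 left out together. The lowest adjusted p of a factor in any of them was 0.488 (limma, Myod1 in the last). At an unadjusted p under 0.05 the main count of 0 did not hold throughout. In limma, Myod1 had 0.0009 in the last alternative and 0.0077 without control 1. Mef2c had 0.0065 without control 3 and 0.043 with the replicate block. Mef2d had 0.022 without radiotherapy 3, and Myf6 0.035 without radiotherapy 1. Of 111 fold changes of factors under alternatives, 106 kept their sign and 5 turned, all of Myog: 0.00116 with quantile normalization, 0.163 without control 1 and radiotherapy 2, and 3 of the 6 single libraries left out, over which Myog ran from −0.75 to 0.22. Over all genes the count ran from 0 to 6 as each library was left out. The 6 came without control 1 and none was a factor; 4 of them are Snord3b copies with identical values. Median-of-ratios scaling and quantile normalization moved the median of all genes from −0.11 to −0.04 and −0.01, and the median of the MEF2 genes from −0.39 to −0.30 and −0.21. The medians of the satellite cell, fusion and E protein lists turned positive under these 2 scalings. Removing the 50 most abundant genes took members out of the adult fibre list, so its median there is of fewer genes, and no EYA or DACH gene had a value with the 5 TPM minimum.

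Replicate numbers are shared by the groups, but the labels state no pairing. The correlation of deviations from the group means was −0.06, 0.02 and −0.11 for numbers 1, 2 and 3, and 0 of 6 samples correlated best with their own number. With the replicate block 0 genes and 0 factors were called. Depth is not known, so Pax7, Myf5 and other genes under 1 TPM have no detection limit here.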

Other observations

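Trim63, Fbxo32 and Gadd45a belong to the list of genes that respond to loss of the nerve, and were singled out after their values were seen. Trim63, a ubiquitin ligase of muscle atrophy, had values of 521, 946 and 1503 TPM in the controls (libraries 1 to 3), while the radiotherapy libraries had 297, 769 and 1164 TPM. Fbxo32, the other main ligase of atrophy, was at 140, 201 and 417 TPM and at 133, 195 and 224 TPM. Gadd45a, a stress gene that also rises after loss of the nerve, was at 110, 211 and 628 TPM and at 174, 233 and 303 TPM. Each of the 3 genes was highest in control 3, as were 25.2% of all genes tested. Trim63 and Fbxo32 were lowest in radiotherapy 1 and Gadd45a in control 1.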
